A study of Mus musculus with 24 samples.

Results

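The genes described here belong to families known for proteins that mark, read or remodel chromatin or that methylate DNA. They were followed in cells sorted from differentiating mouse embryoid bodies. Members were chosen by gene symbol, as the HDAC, KDM, KMT, SETD, CBX, CHD, SMARC, DNMT, HMG, JARID, BRD and PHF families with Eed, Suz12 and the Ezh genes and with 1 gene left out by the rule, on probes whose platform annotation lists 1 gene. This gave 92 of the 8973 named genes of the array, read by 143 of its 20280 probes. A single probe read 57 of the members, and for the other 35 the probes were averaged. A further 7 genes with matching symbols (Cbx6, Chd2, Ezh2, Kdm2a, Kdm6b, Phf12 and Smarcd3) lay only on probes shared with another gene and were not analysed here. Members of these families resemble each other in sequence, and whether a probe also reads a relative was not tested.

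Embryoid bodies are aggregates in which embryonic stem cells differentiate. Cells were sorted from them at 84 h, 95 h and 8 d of differentiation into those with Flk1 on their surface (Flk1+), the VEGF receptor encoded by Kdr that marks early mesoderm and endothelium, and those without it (Flk1-). Each of the 6 groups had 4 samples, and RNA of each sample was amplified, labelled with Cy5 and hybridised to 1 of 24 two-colour Agilent arrays against Cy3-labelled total RNA of homogenised whole mouse pups. The labels name no stem cell line, genotype or added agent for any group, and they do not say whether the 4 samples of a group came from separate cultures, so p-values rest on a spread between arrays that may be technical. A level below is the log2 ratio of sample over pup reference as read from the deposited values, with each array's median set to 0, and a difference is that of 2 group means of such levels. The standard error (SE) of a difference and its adjusted p come from 1 limma fit to all 24 arrays, adjusted by Benjamini-Hochberg over 17440 features, and a member is called where the adjusted p is under 0.05. In RNA of a sorted population, fewer cells that express a gene and less of its RNA per cell cannot be told apart.

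The sort was visible in its own gene, since Kdr was higher in Flk1+ cells by 1.91 at 84 h, 2.93 at 95 h and 1.89 at 8 d (limma adjusted p = 1.39e-05, 1e-07 and 0.000155). On the 4 Flk1+ arrays of 84 h its levels were uneven, at 1.80, 0.04, 1.43 and 0.67. Kdr also rose from 84 h to 95 h in Flk1+ cells by 0.86 (limma adjusted p = 0.0165), to levels of 1.88, 1.73, 1.79 and 1.98. Arrays 1 and 3 of 84 h lay nearest to these levels and arrays 2 and 4 furthest below them. From 95 h to 8 d it rose in Flk1- cells by 0.77 (limma adjusted p = 0.0248). Of 9 measured endothelial marker genes, Kdr among them, 1, 1 and 3 were higher in Flk1+ cells at the 3 times and 0, 1 and 0 lower, and of 7 measured genes of primitive streak and early mesoderm 4, 1 and 0 were higher and 0 lower. Over all features, arrays of 1 group correlated from 0.59 to 0.93 in Flk1+ cells at 84 h and from 0.669 to 0.966 in the other groups. In Flk1+ cells at 84 h arrays 1 and 3 correlated at 0.93 and arrays 2 and 4 at 0.839, so the group split into 2 pairs. Arrays 2 and 4 had the wider spread over all probes (SD 1.009 and 1.005, against 0.807 and 0.851). Flk1- array 4 of 84 h correlated with its group at 0.877 to 0.888, where arrays of 95 h ran from 0.669 to 0.898. These 3 arrays are called those that stood apart, and the calls that involve 84 h are followed below without them. Which Flk1+ pair is the usual one was not tested, so leaving out the 3 arrays is an alternative, not a correction.

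DNA in the nucleus is wound on histones, and the families of the members are known to act on this packaging in different ways. Polycomb proteins keep genes silent, with one complex (Eed, Suz12, an Ezh enzyme and its partner Jarid2) placing a methyl mark on histones and another, which holds a CBX protein, binding to that mark. Cbx7 is the CBX protein known from embryonic stem cells, whereas Cbx2 and Cbx8 are known to take its place as these cells differentiate. KMT and SETD proteins add methyl groups to histones or other proteins, and KDM enzymes remove them. HDAC enzymes remove acetyl groups, SMARC and CHD proteins move nucleosomes, and HMG proteins bind DNA or nucleosomes. Dnmt1 copies DNA methylation at replication, Dnmt3a sets it anew, and Dnmt3l is a helper without enzyme activity that is known from germ cells and early embryos.

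The promoters of 4 members described at length below are shown first: Cbx7 and Jarid2, which were lower in Flk1+ cells at 84 h and 95 h, Hmga2, which was higher there, and Smarca1, which rose most by 8 d in both sorts. Each is the 250 bases before the start of transcription, 5′ to 3′ on the gene's strand, from RefSeq (build GRCm38.p6), with the GC box (GGGCGG or its reverse complement CCGCCC) and the CCAAT box (CCAAT or ATTGG) in capitals. For Jarid2 the first of 2 listed starts was taken.
Cbx7, chr15:79932647-79932896, minus strand: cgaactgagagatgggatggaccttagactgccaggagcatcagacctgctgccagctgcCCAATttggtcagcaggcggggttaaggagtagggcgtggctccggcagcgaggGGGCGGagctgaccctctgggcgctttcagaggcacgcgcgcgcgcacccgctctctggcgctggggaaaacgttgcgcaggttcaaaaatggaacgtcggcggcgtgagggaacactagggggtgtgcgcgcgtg
Jarid2, chr13:44730524-44730773, plus strand: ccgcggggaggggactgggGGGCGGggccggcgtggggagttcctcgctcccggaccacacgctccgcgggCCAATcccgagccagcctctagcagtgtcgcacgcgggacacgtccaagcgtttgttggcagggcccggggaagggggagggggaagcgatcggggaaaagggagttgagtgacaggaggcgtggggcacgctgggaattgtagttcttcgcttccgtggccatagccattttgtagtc
Hmga2, chr10:120476470-120476719, minus strand: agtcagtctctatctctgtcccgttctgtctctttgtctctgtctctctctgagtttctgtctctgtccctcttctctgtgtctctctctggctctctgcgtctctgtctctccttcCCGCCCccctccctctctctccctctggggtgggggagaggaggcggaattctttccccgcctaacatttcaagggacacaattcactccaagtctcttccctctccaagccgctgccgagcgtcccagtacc
Smarca1, chrX:47892614-47892863, minus strand: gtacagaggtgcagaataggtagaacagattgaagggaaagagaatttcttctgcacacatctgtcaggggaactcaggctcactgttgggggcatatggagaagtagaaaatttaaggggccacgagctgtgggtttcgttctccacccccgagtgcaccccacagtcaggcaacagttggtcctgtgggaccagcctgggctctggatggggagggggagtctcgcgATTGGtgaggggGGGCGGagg

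Each of the 4 windows held 1 GC box, and those of Cbx7, Jarid2 and Smarca1 also held 1 CCAAT box. Windows of this length were found for 76 of the 92 members and for 17492 protein-coding genes. A GC box was present on either strand in 71.1% of the members' windows and in 42.7% of those of protein-coding genes. The CCAAT box was present in 38.2% and 36.3%, and the TATA box (TATAAA or TTTATA) in 2.63% and 12.4%. The median number of CpG dinucleotides per window was 20 for members and 10 for protein-coding genes. Cbx7 and Jarid2 had 23 each, whereas Hmga2 had 8 and Smarca1 had 6, so these 4 promoters lay on both sides of the members' median. A GC box and a CCAAT box can share bases and each was counted on its own, and a match describes the letters only.

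The level of the members against the pup reference differed widely between genes. Of the 92, 11 lay above 0 on each of the 24 arrays, 7 lay below 0 on each and 74 lay on both sides. Hmga2, an architectural HMG protein of embryonic cells, had the highest mean over the 6 groups at 2.43, followed by Cbx7 at 1.18 and Phf23 at 1.13, whereas the histone methyltransferase gene family member Kmt2e was lowest at -1.09. These are ratios to the reference for each probe and do not order the genes by amount of RNA. The group means of Cbx7 spanned 2.62, the widest of the members, followed by Eed at 1.91, Hmga2 at 1.75 and Setd6 at 1.70. Of the 92 members 50 were called in at least 1 of the 7 comparisons of groups, 21 of them once, and 42 were not called in any. The share of all features called at least once was not counted, so the 50 cannot be read as particular to the members.

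The first comparison asked which members differed between Flk1+ and Flk1- cells at 84 h. The Polycomb gene Cbx7 and the Polycomb partner gene Jarid2 were lower in Flk1+ cells and Hmga2 was higher, by the widest margins of the called members, although without the 3 arrays Jarid2 at -0.77 came after Setd6 at -0.81. In all 20 of 92 members were called (21.7%), with 6 above and 14 below the Flk1- level, where 13.5% of all features were called, 5.3% higher and 8.18% lower. After quantile normalization the split was 2 higher and 12 lower for the members, and 625 higher and 679 lower for all features (7.48% called). The median difference was -0.12 over the members and 0.00 over all features. There was no overlap between Flk1+ and Flk1- arrays for 23 members (25%), against 17.4% of all features.

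Cbx7 had levels of 0.69, 0.53, 0.77 and 0.63 on the 4 Flk1+ arrays and of 2.64, 2.71, 2.64 and 2.80 on the 4 Flk1- arrays. The difference was -2.04 (SE 0.16, limma adjusted p = 2.65e-08) or 4.13-fold, with each Flk1- array far above each Flk1+ array, and -1.93 without the 3 arrays that stood apart. Jarid2 had levels of 0.98, -0.34, 0.91 and -0.46 in Flk1+ cells and of 1.42, 1.81, 1.90 and 1.22 in Flk1- cells. Its difference was -1.31 (SE 0.25, limma adjusted p = 0.00194), again with no overlap, but the low Flk1+ values came from arrays 2 and 4 and the difference was -0.77 without the 3 arrays (adjusted p = 0.00982). Of the other 5 Polycomb members 0 were called, and 2 of them, Eed at -1.71 (adjusted p = 0.0554) and Suz12 at -0.83 (adjusted p = 0.101), lay at -0.33 and 0.00 without the 3 arrays.

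Hmga2 was the member most raised in Flk1+ cells. Its levels were 3.07, 2.75, 3.09 and 3.12 on the Flk1+ arrays and 1.34, 0.85, 1.29 and 1.55 on the Flk1- arrays, a difference of 1.75 (SE 0.17, limma adjusted p = 6.05e-07) or 3.36-fold, and of 1.92 without the 3 arrays. Both groups lay above the pup reference, and the lowest Flk1+ array was far above the highest Flk1- array. The other 5 HMG members were not called.

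Among histone deacetylases Hdac7, an enzyme known from the endothelium, was the 1 called member of 9. It had levels of -0.03, 0.45, -0.03 and 0.38 in Flk1+ cells and of -0.63, -0.54, -0.51 and -0.52 in Flk1- cells. The difference was 0.74 (SE 0.12, limma adjusted p = 0.000338), the groups did not overlap, and it was 0.53 without the 3 arrays. Its 2 probes gave 1.04 and 0.45.

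Histone demethylase genes were lower in Flk1+ cells in 3 of 11 cases. Kdm4c had levels of 0.13, -0.29, -0.03 and -0.21 in Flk1+ and of 0.57, 0.59, 0.56 and 0.57 in Flk1- cells, a difference of -0.67 (SE 0.09, limma adjusted p = 3.74e-05) with no overlap, and of -0.52 without the 3 arrays. It came from 1 of the gene's 2 probes, which gave -1.47 and 0.12. Kdm3a, with levels of 0.42, -0.45, 0.19 and 0.16 in Flk1+ and of 0.86, 0.83, 0.93 and 1.19 in Flk1- cells, was lower at -0.87 (SE 0.18, limma adjusted p = 0.00282), and Kdm5b at -0.49. The Flk1+ arrays of both lay below their Flk1- arrays.

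Of 15 KMT and SETD members 3 were lower in Flk1+ cells and 0 higher. Setd6, a lysine methyltransferase that acts on proteins other than histones as well, had levels of 0.42, 0.05, 0.51 and 0.81 in Flk1+ and of 1.23, 1.36, 1.22 and 1.50 in Flk1- cells. Its difference was -0.88 (SE 0.17, limma adjusted p = 0.00237) with no overlap, and -0.81 without the 3 arrays. Kmt2c at -0.48 and Setd5 at -0.35 were the other called members.

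The remaining families gave calls in both directions. Of 9 CHD members Chd9 at -0.54 and Chd4 at -0.67 were lower and Chd7 at 0.48 and Chd1 at 0.26 higher. Of the 3 HP1 members, which bind methylated histones of silent chromatin, Cbx1 was lower at -1.22, with levels of 0.63, -1.02, 0.66 and -0.86 in Flk1+ and of 1.13, 1.44, 1.13 and 0.58 in Flk1- cells, and Cbx5 was higher at 0.30. Cbx1 was among the 5 called members whose arrays overlapped. Brd2 at -0.62 was the 1 called bromodomain gene, Phf20 at -0.51 and Phf3 at -0.49 were lower and Phf7 at 0.59 higher, and 0 of 12 SMARC members and 0 of the 3 DNA methylation members were called by limma.

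**Figure D1:**
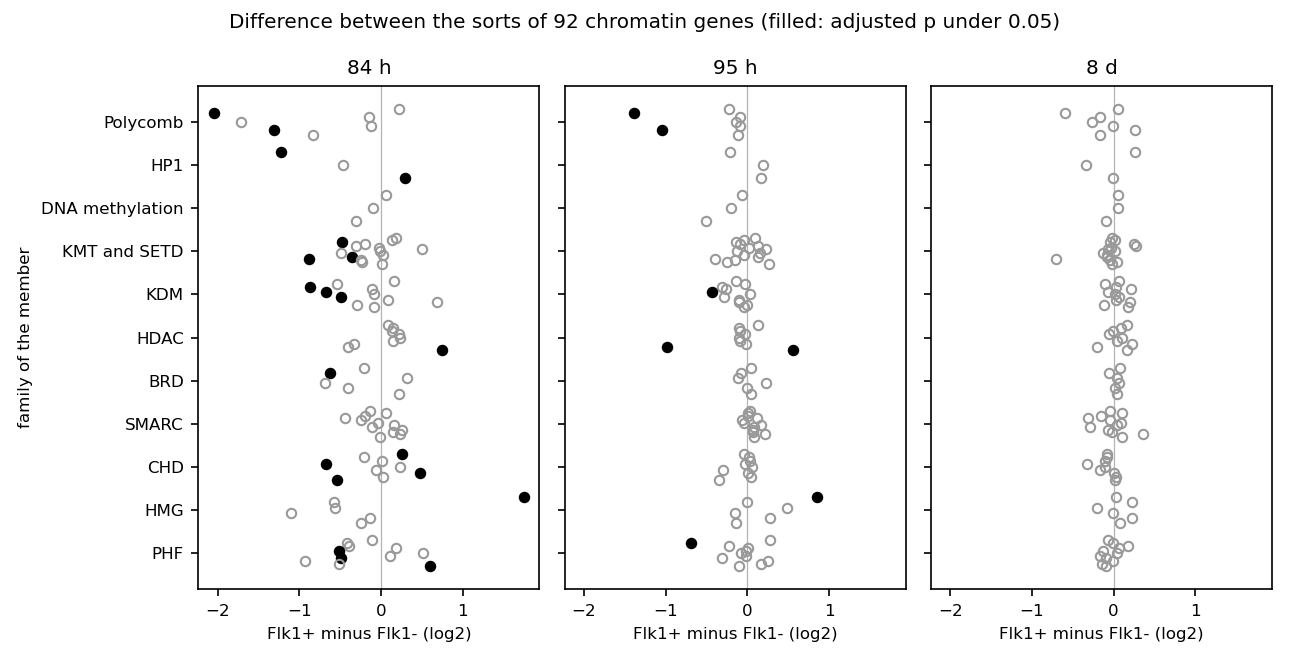
Difference between Flk1+ and Flk1- group means (log2, horizontal) for the 92 members by family (vertical), with 1 panel per time and filled points for an adjusted p under 0.05. The spread narrows from 84 h to 8 d, where 20, 7 and 0 members were called, and the left-most filled point at 84 h and 95 h is Cbx7.

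Of the 20 calls at 84 h 5 were kept under each alternative tried and without each single array, namely Cbx7, Hmga2, Hdac7, Kdm4c and Setd6. Without the 3 arrays 8 members were called (background 6.74%), of which 7 were among the 20, and the 13 calls that ended were those of Cbx1, Kdm3a, Chd4, Brd2, Phf20, Kdm5b, Phf3, Kmt2c, Setd5, Chd1, Cbx5, Chd7 and Phf7. Of these Kdm5b at -0.51, Chd1 at 0.28 and Cbx5 at 0.29 had about the same difference as with all arrays and lost only the call, while those of the other 10 were smaller, from -0.59 to 0.34. The probes of Setd5 and Cbx5 were opposed in sign, from -0.84 to 0.08 and from -0.02 to 0.57 over 4 probes each. With only the 8 arrays of 84 h fitted 5 were called, and of the 7 Jarid2 (adjusted p = 0.115) and Chd9 (adjusted p = 0.0544) were not. Genes of pluripotent cells moved with these differences. Of 13 measured genes of a pluripotent marker list 0 were higher and 9 lower in Flk1+ cells at 84 h, with a median difference of -1.04 (6 lower and a median of -0.65 without the 3 arrays), and the mean level of the list ran from 0.213 to 0.702 on the Flk1+ arrays and from 1.57 to 1.69 on the Flk1- arrays. Of 6 measured epithelial genes 1 was higher and 4 were lower (0 and 2 without the 3 arrays). The part of either list in the members' differences was not tested.

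At 95 h the same question gave 7 called members (7.61%), with 2 above and 5 below the Flk1- level, where 2.03% of all features were called, 0.659% higher and 1.37% lower. The called members were Cbx7, Jarid2, Hdac6, Phf11d and Kdm4c on the lower side and Hmga2 and Hdac7 on the higher side, and Flk1+ and Flk1- arrays did not overlap for any of the 7. Over the 92 members 11 had no overlap (12%), against 4.81% of all features. Of the 7 calls 5 had also been made at 84 h, each in the same direction (Cbx7, Hdac7, Hmga2, Jarid2 and Kdm4c), which is 71.4% of the calls at 95 h and 25% of those at 84 h. Over all features the shares were 73.2% and 11%.

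Cbx7 had levels of 0.84, 0.45, 1.15 and 0.73 in Flk1+ and of 2.42, 1.62, 2.41 and 2.28 in Flk1- cells, a difference of -1.39 (SE 0.16, limma adjusted p = 1.02e-05) or 2.62-fold. Jarid2 had levels of 0.43, 0.90, 0.88 and 0.84 in Flk1+ and of 1.80, 1.97, 1.91 and 1.56 in Flk1- cells, a difference of -1.05 (SE 0.25, limma adjusted p = 0.0273). Here the Jarid2 arrays of each sort lay close together, in contrast to the wide spread of the Flk1+ arrays at 84 h. The other 5 Polycomb members differed by -0.23 to -0.09 and were not called.

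Hdac6, a mostly cytoplasmic deacetylase that acts on tubulin, was the member with the clearest difference that had not been called at 84 h. Its levels were 0.03, 0.37, 0.16 and 0.09 in Flk1+ and 1.37, 1.33, 1.07 and 0.81 in Flk1- cells, a difference of -0.99 (SE 0.14, limma adjusted p = 0.000123). At 84 h the difference had been -0.40 with adjusted p = 0.0525, also with no overlap between the arrays. Whether the difference grew between the times was tested below.

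Hmga2 was higher in Flk1+ cells with levels of 3.16, 2.46, 2.73 and 2.43 against 1.49, 2.18, 1.73 and 1.98, a difference of 0.85 (SE 0.17, limma adjusted p = 0.00547). Hdac7 was higher with levels of 0.17, -0.12, 0.10 and -0.09 against -0.37, -0.83, -0.45 and -0.51, a difference of 0.56 (SE 0.12, limma adjusted p = 0.0109). Both genes kept separate arrays for the sorts, by a narrow gap in Hmga2. The 2 probes of Hdac7 gave 0.98 and 0.14. Phf11d, a PHD finger gene, was lower with levels of -0.54, -0.96, -0.39 and -0.58 against 0.24, -0.26, 0.23 and 0.06, a difference of -0.69 (SE 0.16, limma adjusted p = 0.0267). Kdm4c, at -0.43 (SE 0.09, limma adjusted p = 0.00916), again differed through 1 probe, which gave -0.79 where the other gave -0.07.

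**Figure D2:**
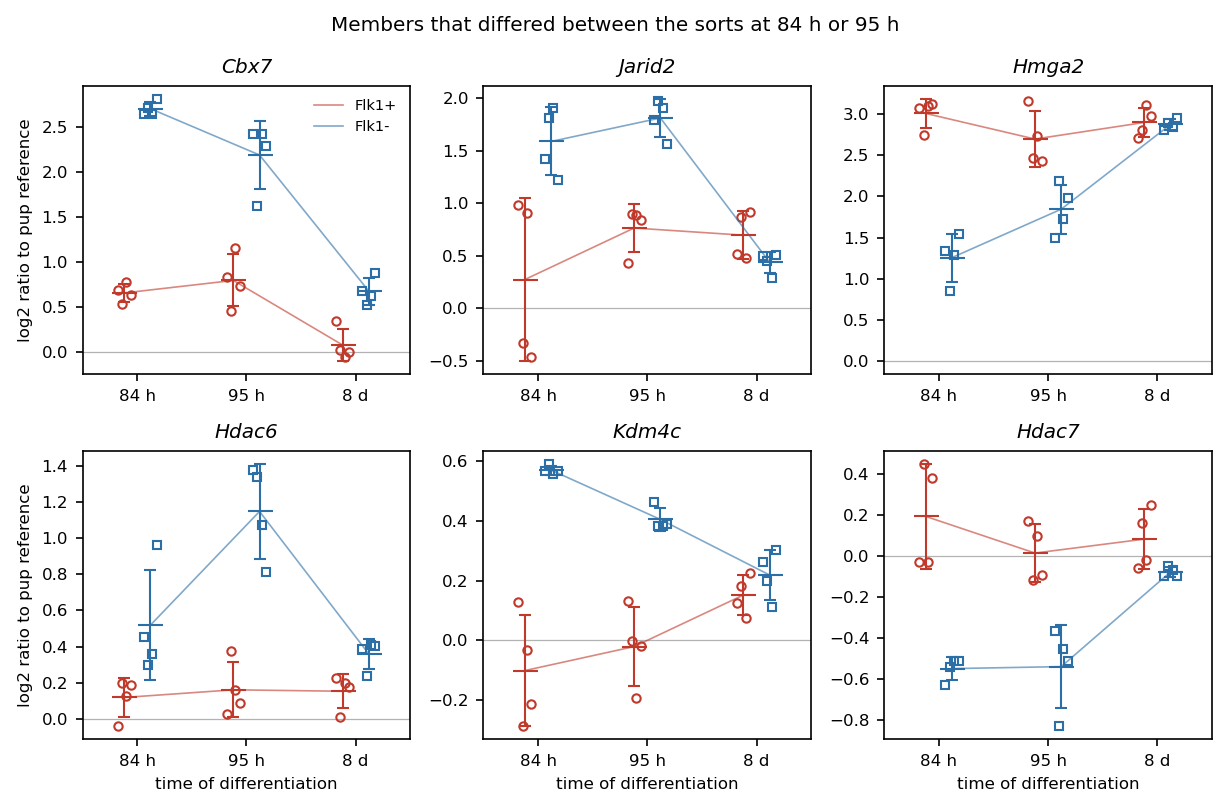
Levels (log2 ratio to the pup reference, vertical) of 6 members on each array by time (horizontal), with open circles for Flk1+ and squares for Flk1- arrays and bars for the group mean ± SD (n = 4). Cbx7 and Jarid2 lie lower and Hmga2 higher in Flk1+ cells at 84 h and 95 h, Hdac6 parts most at 95 h, and at 8 d the sorts lie close in each panel but that of Cbx7.

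The calls of Cbx7 and Hdac6 at 95 h were kept under each alternative tried. Those of Jarid2 and Phf11d ended without any of 5 single arrays, Flk1+ 1 or 4 and Flk1- 1, 2 or 3 for Jarid2 and Flk1+ 2 or 4 and Flk1- 1, 3 or 4 for Phf11d. When only the 8 arrays of 95 h were fitted, 3 members were called, Cbx7, Hdac6 and Jarid2, while Hmga2 (adjusted p = 0.145), Hdac7 (adjusted p = 0.182), Phf11d (adjusted p = 0.154) and Kdm4c (adjusted p = 0.224) were not. The pluripotent markers again moved alongside, with 0 of 13 higher and 5 lower in Flk1+ cells, a median of -0.81, and levels from 0.145 to 0.381 on Flk1+ and from 1.13 to 1.35 on Flk1- arrays, while 0 of 6 epithelial genes were higher and 3 lower, and their part was not tested.

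At 8 d 0 of the 92 members were called by limma between the sorts, where 0.373% of all features were called, and 4 had an unadjusted p under 0.05 (Cbx7, Setd6, Kmt5b and Smarcd2). The share of all features under this unadjusted limit was not counted. Without the 3 arrays of 84 h, which enter through the pooled spread, Setd6 was called (adjusted p = 0.0342, background 0.986%). For 11 members (12%) the arrays did not overlap, against 15.9% of all features. Cbx7 had levels of 0.34, 0.03, -0.05 and -0.00 in Flk1+ and of 0.67, 0.52, 0.62 and 0.88 in Flk1- cells, a difference of -0.60 (SE 0.16, limma adjusted p = 0.128). Setd6 had levels of -0.31, -0.42, -0.41 and -0.33 in Flk1+ and of 0.41, 0.20, 0.03 and 0.69 in Flk1- cells, a difference of -0.70 (SE 0.17, limma adjusted p = 0.0912). In both genes each Flk1+ array lay below each Flk1- array, although neither passed. When arrays of equal number were blocked within each time, the 2 were called (adjusted p = 0.0219 for Cbx7 and adjusted p = 0.0276 for Setd6). Hmga2 and Jarid2, which had differed at 95 h, lay at 0.02 and 0.26 and the arrays of both genes overlapped.

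The next comparison followed Flk1+ cells from 84 h to 95 h. In all 18 members were called (19.6%), 12 higher and 6 lower at 95 h, where 19.8% of all features were called, 11.2% higher and 8.62% lower. The share of members was thus that of all features. The largest rises were those of Eed at 1.78, Phf5a at 1.57, Hmgb3 at 1.48, Hmgn1 at 1.48, Brd7 at 1.21 and Chd4 at 1.05.

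These 6 rises were smaller without the 3 arrays that stood apart, and that of Chd4 alone was still called. Eed, the core subunit of the Polycomb methyltransferase, had levels of 1.56, -2.25, 1.51 and -1.65 at 84 h and of 1.91, 1.36, 1.61 and 1.40 at 95 h. Arrays 1 and 3 of 84 h were within the range of 95 h and arrays 2 and 4 were far below, and without the 3 arrays the difference was 0.04 (adjusted p = 0.939). Phf5a, a splicing factor with a PHD-like fold, had levels of 0.98, -1.32, 0.94 and -1.33 against 1.56, 1.33, 1.25 and 1.41. Hmgn1, a nucleosome binding protein, had levels of 0.79, -1.67, 0.84 and -1.33 against 0.92, 1.56, 1.01 and 1.04. Without the 3 arrays their differences were 0.42 and 0.32. Those of Hmgb3, a DNA-bending protein, and Brd7, a bromodomain subunit of SWI/SNF complexes, were 0.59 and 0.52.

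The other members called higher at 95 h were Kdm2b at 0.73, Setd3 at 0.72, Brd2 at 0.58, Phf20 at 0.51, Cbx8 at 0.46 and Setd5 at 0.36. Those called lower were Phf20l1 at -0.77, the demethylase gene Kdm1b at -0.60, Phf7 at -0.55, Chd7 at -0.54, the deacetylase gene Hdac2 at -0.33 and Chd1 at -0.29. These 12 calls ended without the 3 arrays. Chd1 had a difference of -0.33 without them, no smaller than before, while those of the other 11 were smaller, from -0.49 to 0.32. The 2 probes of Hdac2 gave -0.95 and 0.29, and the 4 probes each of Phf20 and Setd5 ran from -0.13 to 1.25 and from -0.20 to 0.64. In all, of 32 called differences of members read by several probes 8 had probes of opposed sign.

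The spread within the Flk1+ group of 84 h can be read from the members themselves. For 27 of the 92 members the 4 arrays of this group spanned more than 1, against 1 to 4 members in each of the other 5 groups. All features were not counted in this way, and the arrays of this group also split over all features. The 27 thus cannot be read as particular to the members. In 19 of the 27 arrays 2 and 4 were the lowest and in the other 8 arrays 1 and 3 were. The 19 included Eed, Suz12 and Jarid2 of the Polycomb family, the HP1 members Cbx1 and Cbx3, and 5 of the 6 HMG members (Hmgn1, Hmgn2, Hmgn5, Hmgb2 and Hmgb3). The 8 included Hdac1, with levels of 0.63, 1.72, 0.75 and 1.81, and Kdm5d, a demethylase gene of the Y chromosome, with levels of 0.15, 1.75, 0.08 and 0.90. A list of 33 cell cycle genes had mean levels of 0.97, 0.237, 1.02 and 0.273 on these 4 arrays and of 0.735 to 1.03 on the other 20, and its part in the spread was not tested. Cbx7, Hmga2, Hdac7, Kdm4c and Setd6 were not among the 27.

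**Figure D3:**
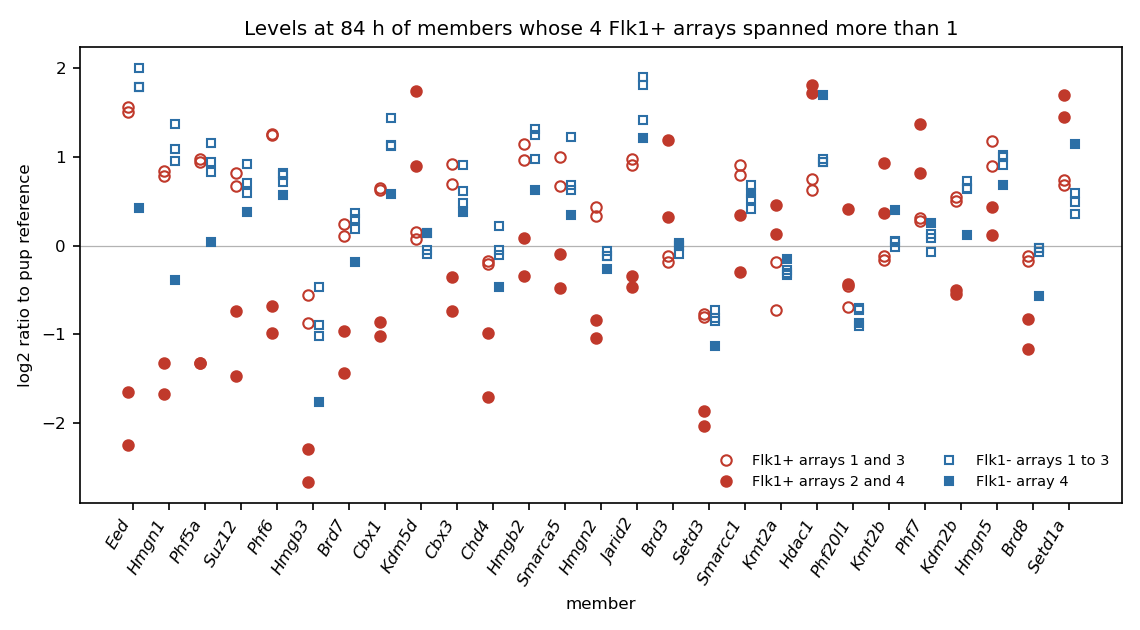
Levels at 84 h (log2 ratio to the pup reference, vertical) of the 27 members whose 4 Flk1+ arrays spanned more than 1 (horizontal, by decreasing span), with circles for Flk1+ arrays, filled for arrays 2 and 4, and squares for Flk1- arrays, filled for array 4. Filled circles lie below open ones in 19 members and above them in 8, from Eed with a span of 3.81 to Setd1a with 1.01.

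Without the 3 arrays 1 of the 92 members, Chd4, was called between 84 h and 95 h in Flk1+ cells (0.48, limma adjusted p = 0.0107, background 5.45%). Chd4, the ATPase of the NuRD complex, had levels of -0.18, -1.71, -0.21 and -0.98 at 84 h and of 0.09, 0.37, 0.40 and 0.28 at 95 h, so that each array of 95 h lay above each array of 84 h. With only the 8 arrays compared 0 members and 0 features were called.

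In Flk1- cells 2 members were called between 84 h and 95 h (2.17%), both higher at 95 h, where 1.64% of all features were called and 1.06% were higher. For 9 members (9.78%) the arrays of the times did not overlap, against 9.98% of all features, and without the 3 arrays 4 members were called (background 3.83%). Cbx2 rose by 0.66 (SE 0.13, limma adjusted p = 0.0134), from levels of -0.18, -0.16, -0.22 and -0.11 to 0.27, 0.69, 0.21 and 0.79, with no overlap. Hdac6 rose by 0.63 (SE 0.14, limma adjusted p = 0.0183), from 0.45, 0.30, 0.36 and 0.96 to 1.37, 1.33, 1.07 and 0.81. The Hdac6 groups overlapped through array 4 of 84 h, 1 of the 3 that stood apart, and the difference was 0.78 without them. The Cbx2 call also ended without Flk1- array 2 of 95 h or array 3 of 84 h, and that of Hdac6 without array 2 of 95 h or array 1, 2 or 3 of 84 h. Neither call was kept when only the 8 arrays compared were fitted (adjusted p = 0.0985 and 0.171).

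From 95 h to 8 d members changed in both sorts. Over all probes the deposited values had an SD of 0.709 to 0.785 on the arrays of 95 h and of 0.562 to 0.634 on those of 8 d. How far a narrower spread draws levels toward 0 was not tested beyond quantile normalization, which gives all arrays the same spread. In Flk1+ cells 22 members were called (23.9%), 10 higher and 12 lower at 8 d, where 22.1% of all features were called, 12.8% up and 9.31% down. In Flk1- cells 22 members were called (23.9%), 8 higher and 14 lower, where 17.7% of all features were, 9.88% higher and 7.78% lower. The 2 comparisons share no array but rest on 1 pooled spread, and deviations of same-numbered arrays correlated positively between the sorts at both times. In both sorts 14 members were called, 63.6% of either list, each in the same direction. The times had no overlapping arrays for 38 members in Flk1+ (41.3%, all features 34.6%) and 36 in Flk1- cells (39.1%, all features 27.8%). Over all features 2018 were called in both sorts, 52.3% of the Flk1+ and 65.5% of the Flk1- calls. Across the 92 genes, which are not independent replicates, 73 had the same sign in both sorts (79.3%, all features 76.6%) and the differences correlated at 0.764, against 0.776 over all features. The members' likeness between sorts and their share of calls in Flk1+ cells were thus close to those of all features. The split of all features turned with the scaling, from 2238 higher and 1623 lower to 2304 and 2697 after quantile normalization in Flk1+ cells and from 1723 and 1357 to 2135 and 2456 in Flk1- cells, where that of the members was 13 and 14 and 10 and 19.

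Among the SMARC proteins Smarca1, the ATPase of ISWI-type remodelling complexes also called SNF2L, rose most. In Flk1+ cells its levels went from 0.16, 0.27, 0.48 and 0.19 at 95 h to 1.71, 1.61, 1.67 and 1.54 at 8 d, a difference of 1.36 (SE 0.12, limma adjusted p = 1.97e-08) or 2.56-fold. In Flk1- cells they went from 0.23, 0.08, 0.40 and 0.24 to 1.70, 1.71, 1.65 and 1.64, a difference of 1.44 (SE 0.12, limma adjusted p = 1.04e-08). Levels at 84 h were as low as at 95 h, so that the 8 arrays of 8 d stood above the 16 of the earlier times. Both probes of Smarca1 rose, by 2.26 and 0.45 in Flk1+ and by 2.27 and 0.60 in Flk1- cells.

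Smarca2, the ATPase Brm of SWI/SNF complexes, rose in Flk1+ cells from -0.88, -0.998, -0.96 and -1.24 to -0.11, -0.25, -0.00 and -0.42, a difference of 0.82 (SE 0.10, limma adjusted p = 2.29e-06). In Flk1- cells it rose from -0.86, -1.17, -0.96 and -1.08 to -0.32, -0.36, -0.25 and -0.28, a difference of 0.72 (SE 0.10, limma adjusted p = 1.68e-05). Its 2 probes differed, with 1.46 and 0.18 in Flk1+ and 1.35 and 0.08 in Flk1- cells. Smarca4, which encodes Brg1, the other ATPase of these complexes, went the other way in Flk1+ cells at -0.41 (limma adjusted p = 0.0215) and was not called in Flk1- cells at -0.25. Smarcd1, an accessory subunit, was lower in both sorts, at -0.53 and -0.45.

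Among the Polycomb members the CBX genes moved in opposite directions by 8 d. Cbx7 fell in Flk1+ cells to a level of 0.08, by a difference of -0.72 (SE 0.16, limma adjusted p = 0.00195), and in Flk1- cells from 2.18 to 0.68, by -1.51 (SE 0.16, limma adjusted p = 3.7e-07). Cbx8 rose in Flk1+ cells from -0.28, -0.31, 0.30 and -0.36 to 0.61, 0.38, 0.52 and 0.41, a difference of 0.64 (SE 0.16, limma adjusted p = 0.00556), and in Flk1- cells from -0.33, 0.31, 0.04 and -0.31 to 0.64, 0.56, 0.72 and 0.64, a difference of 0.72 (SE 0.16, limma adjusted p = 0.00287). The arrays of the 2 times did not overlap for either gene in either sort. Cbx2 was lower at 8 d, at -0.38 in Flk1+ cells, where leaving out any of 6 single arrays (Flk1+ 1, 2, 3 or 4 of 8 d and 1 or 2 of 95 h) ended the call, and at -0.67 in Flk1- cells. Jarid2 fell in Flk1- cells from 1.80, 1.97, 1.91 and 1.56 to 0.50, 0.45, 0.29 and 0.51, a difference of -1.37 (SE 0.25, limma adjusted p = 0.000453), whereas its Flk1+ arrays stayed between 0.43 and 0.92 with a difference of -0.07. Ezh1, a histone methyltransferase of the Polycomb complex, was lower in Flk1- cells at -0.30. Eed had levels of 1.91, 1.36, 1.61 and 1.40 at 95 h and of 0.54, 0.27, 0.20 and 0.68 at 8 d in Flk1+ cells, and of 2.15, 1.37, 1.68 and 1.62 and of 0.77, 0.50, 0.53 and 0.97 in Flk1- cells. Its differences of -1.15 and -1.01 had no overlap between the times and did not pass (limma adjusted p = 0.176 and 0.264, SE 0.59), but passed without the 3 arrays of 84 h (adjusted p = 2.03e-05 and 9.5e-05).

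Dnmt3l fell in both sorts. In Flk1+ cells it went from 1.03, 0.82, 0.83 and 0.90 to -0.01, 0.07, 0.05 and 0.11, a difference of -0.84 (SE 0.16, limma adjusted p = 0.000511). In Flk1- cells it went from 1.52, 1.11, 1.43 and 1.52 to 0.07, 0.19, 0.04 and 0.31, a difference of -1.24 (SE 0.16, limma adjusted p = 6.12e-06). At 8 d, when the values of all probes also spread less than at 95 h, its 8 arrays thus lay near the level of the pup reference.

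Among the KMT and SETD members Kmt2e rose from -1.20, -1.57, -1.15 and -1.43 to -0.53, -0.45, -0.34 and -0.28 in Flk1+ cells, a difference of 0.94 (SE 0.13, limma adjusted p = 1.3e-05). In Flk1- cells the difference was 0.60 (SE 0.13, limma adjusted p = 0.00185), and the 3 probes of the gene rose in either sort, by 0.50 to 1.21 and by 0.35 to 0.81. Setd6 fell to -0.37 in Flk1+ and 0.33 in Flk1- cells, by differences of -0.88 and -0.57, of which the second had overlapping arrays. Called in Flk1+ but not in Flk1- cells were Setd2 at 0.53, Kmt2c at 0.43 and Kmt5c at -0.39, and the reverse held for Setdb1, a methyltransferase of silent chromatin, at -0.53 (SE 0.10, limma adjusted p = 0.000372). These differences between sorts were tested only through the change of the sort difference below. The 2 probes of Setdb1 gave -0.95 and -0.11 in Flk1- cells.

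The CHD remodellers Chd1l and Chd7 fell in both sorts, Chd1l with differences of -0.63 and -0.54 and Chd7 of -0.62 and -0.61, and Chd3, a subunit of NuRD, rose by 0.36 and 0.50. Of the deacetylases Hdac4 rose by 0.56 and 0.43 and Hdac10 fell by 0.35 and by 0.54. Hdac5 rose in Flk1+ cells by 0.72 (SE 0.21, limma adjusted p = 0.0143), from 0.19, -0.38, 0.47 and 0.21 to 0.92, 0.90, 0.76 and 0.81, a call that ended without array 2 of 95 h. Hdac6 fell in Flk1- cells from the peak of 95 h, by a difference of -0.79 (SE 0.14, limma adjusted p = 0.000222), Hdac7 rose there by 0.46 and Hdac11 fell by 0.26. The 2 probes of Hdac7 disagreed on that rise, with 0.93 and -0.01.

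Of the HMG genes Hmgb3 fell in Flk1+ cells from -0.06, -0.04, 0.07 and -0.44 to -1.39, -1.72, -1.58 and -1.37, a difference of -1.40 (SE 0.35, limma adjusted p = 0.00553) and the largest fall there. Hmga2 rose in Flk1- cells from 1.49, 2.18, 1.73 and 1.98 to 2.80, 2.89, 2.84 and 2.95, a difference of 1.03 (SE 0.17, limma adjusted p = 0.00013). With that rise the Flk1- cells reached the level the Flk1+ cells had held since 84 h, and the 8 arrays of 8 d lay between 2.70 and 3.11. Of 11 KDM members 1 was called, Kdm5b in Flk1- cells at -0.41, and of 6 BRD, 11 PHF and 3 HP1 members 0 were called by limma in either sort.

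**Figure D4:**
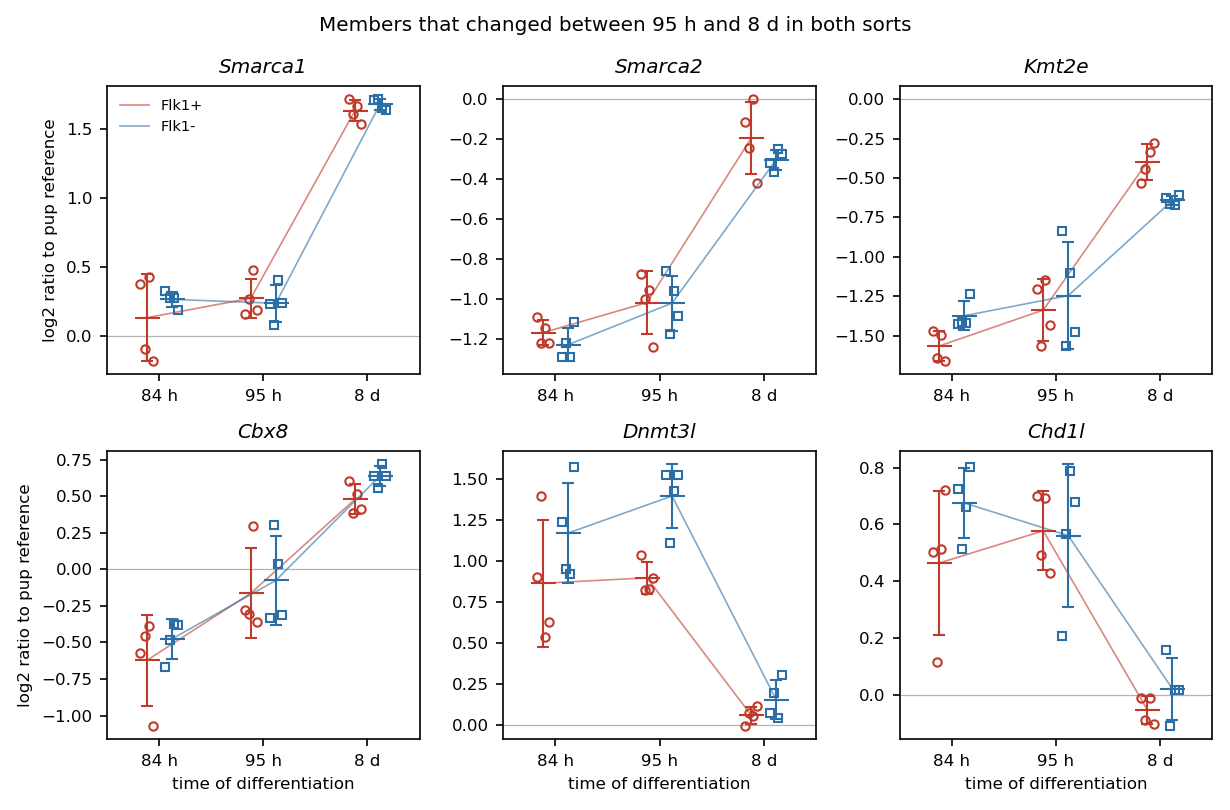
Levels (log2 ratio to the pup reference, vertical) of 6 members on each array by time (horizontal), with open circles for Flk1+ and squares for Flk1- arrays and bars for the group mean ± SD (n = 4). Smarca1, Smarca2, Kmt2e and Cbx8 stand higher and Dnmt3l and Chd1l lower at 8 d than at 95 h in both sorts, with no overlap between the 2 times.

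**Figure D5:**
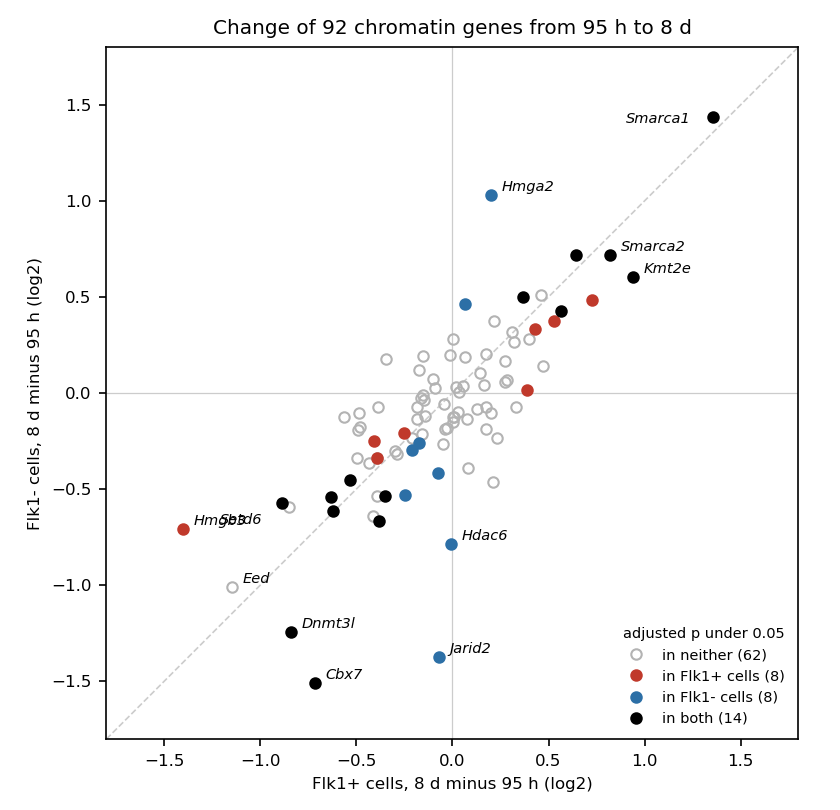
Difference between 8 d and 95 h (log2) of each of the 92 members in Flk1+ (horizontal) and Flk1- cells (vertical), coloured by whether the adjusted p was under 0.05 in both sorts (14), in 1 sort (8 and 8) or in neither (62), with equal change on the dashed line. Most members lie near the line, and Jarid2, Hdac6 and Hmga2 lie far from it, near 0 in Flk1+ cells.

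Of the calls from 95 h to 8 d 12 in Flk1+ and 16 in Flk1- cells were kept under each alternative and without each single array. In Flk1+ cells Kmt2c reversed to -0.17 when its most variable probe stood for the gene, and without the 3 arrays of 84 h, which enter only through the pooled spread, 37 and 38 members were called (background 33.6% and 29.2%). Of 10 genes of smooth muscle and fibroblasts 6 rose over the same interval in each sort and 0 and 1 fell, with medians of 0.81 and 1.26, their mean level going from between -2.11 and -1.88 at 95 h to between -0.50 and -0.22 at 8 d. Pluripotent markers fell in Flk1- cells in 9 of 13 cases and rose in 1 (median -1.11), and in Flk1+ cells 3 fell and 1 rose (median -0.14). Of the 7 genes of primitive streak and early mesoderm 6 fell in Flk1+ cells (median -1.22), and in Flk1- cells 5 fell and 1 rose (median -0.84). Of 33 cell cycle genes 5 rose and 9 fell in Flk1+ (5 and 16 without the 3 arrays, median -0.35) and 4 rose and 5 fell in Flk1- cells (8 and 11, median -0.12). The part of these lists in the members' changes was not tested.

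Whether the difference between the sorts changed over time was tested as an interaction, since calls in 1 sort or time and not in another do not show it. From 84 h to 95 h 0 of 92 members were called by limma (background 0.00573%), and 19 had an unadjusted p under 0.05. All features were not counted at that unadjusted limit, so the 19 cannot be read as particular to the members. Hmga2 had the smallest p, its difference shrinking by -0.90 (SE 0.24, limma adjusted p = 0.231). The growth of the Hdac6 difference was -0.59 (SE 0.19, limma adjusted p = 0.278).

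From 95 h to 8 d 0 members were called by limma (background 0.533%), and 10 had an unadjusted p under 0.05, again with no such count over all features. The widest changes were those of Jarid2 at 1.31 (SE 0.36, limma adjusted p = 0.138), Hmga2 at -0.83 (SE 0.24, limma adjusted p = 0.172), Cbx7 at 0.79 (SE 0.22, limma adjusted p = 0.147) and Hdac6 at 0.78 (SE 0.19, limma adjusted p = 0.078). Each was opposite in sign to the difference at 95 h, so that the sorts lay closer at 8 d. Without the 3 arrays of 84 h Jarid2 (adjusted p = 0.00105), Hdac6 (adjusted p = 0.0118) and Phf11d (0.68, adjusted p = 0.0434) were called, and when arrays of equal number were blocked within each time Cbx7 (adjusted p = 0.0289) and Hdac6 (adjusted p = 0.0487) were.

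Several well-known members were not called. Dnmt1 had group means between 0.39 and 0.70 and Dnmt3a, read by 3 probes, between -0.80 and -0.38, and neither was called in any comparison, with adjusted p from 0.146 upward for Dnmt1 and from 0.0863 upward for Dnmt3a. Their probes did not move alike, and from 84 h to 95 h in Flk1+ cells they gave -0.54 and 0.04 for Dnmt1 and from -0.20 to 0.94 for Dnmt3a, so that the small differences of the means average over unlike probes. Of the 12 SMARC members 8 were not called in any comparison of groups, among them the ATPase gene Smarca5 and the core subunit genes Smarcb1, Smarcc1 and Smarce1. Chd8 had the narrowest range of group means at 0.115, followed by Smarcal1 at 0.165 and Kmt2a at 0.195. The narrow range of Kmt2a averages 2 probes that moved oppositely, by -0.56 and 0.57 in Flk1+ cells from 84 h to 95 h. Suz12, Hdac1 and Hmgn2 had ranges of 0.83, 0.80 and 1.05 and were not called. Their Flk1+ arrays of 84 h spread widely, and those of Hdac1 did so at 8 d as well (SD 0.63 at 84 h and 0.70 at 8 d). The part of this spread in the missing calls was not tested.

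Other chromatin genes outside the member families were read from a list of 129, of which 84 were measured. Between the sorts 3 were higher and 11 lower in Flk1+ cells at 84 h (0 and 3 without the 3 arrays), 1 and 3 at 95 h and 0 and 0 at 8 d. Of all features 13.5% (6.74% without the 3 arrays), 2.03% and 0.373% were called at these times. At 84 h Dppa3, a germ and stem cell gene whose protein guards DNA methylation in the early embryo, was lower in Flk1+ cells at -1.96 (SE 0.31, limma adjusted p = 0.000261) and Utf1, a chromatin protein of undifferentiated cells, at -1.04 (SE 0.14). Both were also lower at 95 h, Dppa3 at -1.64 and Utf1 at -1.11, and both are in the pluripotent marker list too. Sap30, a subunit of the Sin3 deacetylase complex, was at -1.39, Actl6a, a subunit of SWI/SNF complexes, at -1.58, Smc3, a subunit of cohesin, at -1.30 and Hat1, a histone acetyltransferase, at -0.99 at 84 h. Without the 3 arrays the differences of these 4 ran from -0.71 to -0.30 and were not called.

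From 84 h to 95 h 16 of the 84 were higher and 4 lower in Flk1+ cells (2 and 1 without the 3 arrays), led by Actl6a at 1.68 and Kat8, an acetyltransferase, at 1.40. Of all features 19.8% were called there (5.45% without the 3 arrays). Ehmt2, a methyltransferase of silent chromatin also called G9a, was higher at 1.02 and stayed called without the 3 arrays at 0.67. In Flk1- cells 1 was higher, Mta2 of NuRD at 0.59, and 0 lower, where 1.64% of all features were called. From 95 h to 8 d 7 were higher and 17 lower in Flk1+ and 6 higher and 14 lower in Flk1- cells (10 and 29 and 9 and 31 without the 3 arrays of 84 h). Of all features 22.1% were called in Flk1+ and 17.7% in Flk1- cells (33.6% and 29.2% without the 3 arrays). Mbd2, a protein that binds methylated DNA, rose by 1.76 in Flk1+ (SE 0.11, limma adjusted p = 1.61e-10) and by 1.75 in Flk1- cells (SE 0.11, limma adjusted p = 1.68e-10). Tet2, which oxidises methylated cytosine, was higher by 1.01 in Flk1+ and by 0.79 in Flk1- cells. Pcgf6, a Polycomb subunit, was lower at -1.38 and Nasp, a histone chaperone, at -1.33 in Flk1+ cells. In Flk1- cells Utf1 was lower at -1.19, and Phc3, a Polycomb subunit, was higher at 0.86. Of these 84 genes 1, Utf1, was called for a change of the sort difference from 95 h to 8 d, at 1.00 (SE 0.19, limma adjusted p = 0.0159, background 0.533%).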

How the data were processed

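The values deposited by the authors are log ratios, read as log2, of 20280 probes on each of 24 two-colour arrays, with sample RNA in Cy5 and the whole-pup reference in Cy3 per the labels. They were taken as Cy5 over Cy3, and as log2 from a range of -6.42 to 5.33 and a mean of 0 on each array, and array medians ran from 0.046 to 0.197. The log base and direction, feature extraction, background correction and normalization are not given in the sources used here, and signal over background could not be read, so the number of arrays limits the precision. Each array's median was set to 0. Of the probes 11813 name 1 gene, 559 several and 7908 none in the platform annotation, and 11782 of its gene identifiers matched RefSeq with 0 symbols changed. Probes of 1 gene were averaged, giving 17440 features with 8973 genes. One model of 6 group means was fitted with limma 3.58.1 (lmFit, eBayes) in R 4.3.3 over all 24 arrays, with Benjamini-Hochberg adjustment and calls at adjusted p under 0.05, and the code was tested on simulated data.

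The alternatives were the deposited centring, quantile normalization, array weights, a robust prior with trend, the probe of largest SD per gene, leaving out the features of lowest mean level, the replicate number as a block over all arrays or within time, leaving out the 3 arrays that stood apart, fitting only the arrays compared, and leaving out each array in turn. The labels' replicate numbers were checked through the correlation of same-numbered deviations from group means between sorts, which ran from -0.127 to 0.526 at 84 h, from 0.107 to 0.417 at 95 h and from 0.146 to 0.437 at 8 d. Each of the 4 same-numbered pairs was over 0.1 at 95 h and 8 d, and at 84 h the values were 0.34, -0.127, 0.313 and 0.526. Between times they ran from -0.173 to 0.071. Arrays of unlike number were not compared, so whether the numbers pair the sorts at any time was not settled.

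The members and lists were chosen with earlier results of these data known. Every member may be named, values of each array are given for up to the 6 called members of largest absolute difference per comparison and for members described within their family, and of the other chromatin genes up to 6 called ones per comparison are named, with Tet2 in Flk1- cells added after its value was seen.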

Additional observations from a re-analysis of the deposited data

Results flagged for a closer look

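In 24 of 300 groups of 4 arrays tested over members that were called somewhere (8%), 1 array lay apart from the other 3 by Dixon's ratio, where chance marks about 1 group in 20. At 84 h the arrays so marked were array 2 of Flk1+ cells for Hmga2 (level 2.75) and array 4 of Flk1- cells for Eed (0.43), Kdm2b (0.12), Hdac4 (0.095) and Kmt2e (-1.24). Array 4 of Flk1- cells is 1 of the 3 arrays that stood apart over all features. The paired spread of the Flk1+ arrays of 84 h, with 2 arrays on either side, is not of a kind that this ratio marks.

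At 95 h the Flk1+ arrays marked were array 1 for Jarid2 (0.43) and Phf7 (0.34), array 2 for Chd7 (-0.19) and Hdac2 (-0.18), and array 3 for Setd5 (0.13), Setd6 (0.82) and Cbx8 (0.30). The Flk1- arrays were array 2 for Cbx7 (1.62), and array 1 for Chd9 (-0.34), Kdm4c (0.46) and Phf7 (0.69).

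At 8 d the Flk1+ arrays marked were array 1 for Chd7 (-0.63) and array 4 for Kdm1b (-0.21) and Hdac4 (0.073). The Flk1- arrays were array 1 for Chd7 (-0.62), array 2 for Chd1 (0.056) and Hdac6 (0.24), and array 3 for Kdm3a (0.46) and Setd3 (-0.87). For Chd7 array 1 was marked in both sorts.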

How the results depend on the processing

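Of 1560 values of the 91 called member differences under the alternatives, 1247 kept direction and call, 312 lost the call and 1 reversed, that of Kmt2c from 95 h to 8 d in Flk1+ cells (-0.17 with the probe of largest SD). Between sorts, the 20 members called at 84 h became 36 with the replicate block within time (25.1% of all features called), 8 without the 3 arrays that stood apart (6.74%) and 5 with only the arrays compared (1.99%), the 7 at 95 h became 3 with only the arrays compared (0.774%), and the 0 at 8 d became 2 with quantile normalization (1.25%), 9 with array weights (13.4%), 1 with the probe of largest SD (0.43%), 2 with the replicate block within time (0.797%), 1 without the 3 arrays (0.986%) and 6 with only the arrays compared (5.46%). From 84 h to 95 h the 18 in Flk1+ cells became 11 with quantile normalization (9.32%), 1 with array weights (4.61%), 1 without the 3 arrays (5.45%) and 0 with only the arrays compared (0%), and the 2 in Flk1- cells became 12 with array weights (12.4%), 4 without the 3 arrays (3.83%) and 0 with only the arrays compared (0.401%). From 95 h to 8 d the 22 in Flk1+ cells became 36 with array weights (34.7%) and 37 without the 3 arrays (33.6%), the 22 in Flk1- cells became 40 (38.4%) and 38 (29.2%), and the 0 changes of the sort difference became 1 with quantile normalization (0.665%), 4 with array weights (1.65%), 2 with the replicate block within time (0.992%), 3 without the 3 arrays (1.8%) and 2 with only the arrays compared (0.923%). Leaving out single arrays gave 11 to 33 and 5 to 7 between sorts at 84 h and 95 h, and 0 at 8 d. It gave 6 to 28 (Flk1+) and 0 to 4 (Flk1-) from 84 h to 95 h, 17 to 21 and 18 to 25 from 95 h to 8 d, and 0 and 0 to 1 for the changes of the sort difference. The 33 at 84 h and the 28 from 84 h to 95 h came without Flk1+ array 1 or 3 of 84 h, the 6 and 8 from 84 h to 95 h without Flk1+ array 2 or 4, and the 11 and 12 at 84 h without Flk1+ array 4 or Flk1- array 1, 2 or 3. The replicate block over all arrays gave 21, 7 and 0 between sorts, 20 and 2 from 84 h to 95 h, 21 and 21 from 95 h to 8 d, and 0 for either change of the sort difference. The filter on features of lowest mean level left out 14 of the 91 values. Where no cause is named, the cause was not tested.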
